A study of Rattus norvegicus with 50 samples.

Results

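The genes described here are 118 of the 29516 rows of a gene expression table of rat medial prefrontal cortex, and were chosen by their measured values: their level stepped upward between postnatal days 8 and 14, again between days 14 and 21, and again between days 21 and 70. A row was kept when its mean log2 level was higher by at least 0.5 on day 14 than on day 8, by at least 0.5 on day 21 than on day 14, and by at least 0.3 on day 70 than on day 21, and its level averaged at least 1 FPKM in the 50 libraries. FPKM counts sequenced fragments per kilobase of a transcript, relative to the mapped reads of that library, and log2 levels here are log2(FPKM + 0.5) after the libraries were rescaled to each other. Of the 13213 rows with that mean level, 120 met the 3 steps, and 2 of them were set aside by identifier. The age changes of these genes are therefore the values that chose them, and they are given as a description.

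The study measured RNA in Wistar rats without treatment stated in the labels, either wild-type or labelled SERT knock-out, at postnatal days 8, 14, 21, 35 and 70, with 5 libraries for each genotype and age. SERT is the serotonin transporter, which takes serotonin back up into the cells that release it. The labels do not state how the knockout was made, which sex the rats had, or if each library of a group is a separate rat. Some libraries within a group share the first number of their title, and what that number stands for is not stated either. The p-values therefore measure the spread between these libraries, which may be in part technical. The files name genes by Ensembl identifier only, and 0 identifiers could be matched to a symbol, so the genes appear under their identifiers, without function, and neither the labelled tissue nor the knocked-out gene could be checked against marker genes.

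The rodent cortex is immature at birth. Over the first postnatal weeks its neurons form most of their synapses, astrocytes grow out their processes, oligodendrocytes are formed and myelin is laid down, and the eyes open. These processes slow after weaning, while the prefrontal cortex goes on changing through adolescence into adulthood. Genes that climb over this whole span are known to include many that serve mature neurons and glia, but which of these kinds the genes below belong to was not analysed here. In bulk tissue, more cells of a type and more RNA per cell cannot be told apart. Knockout library 30-5 of day 8 and knockout library 24-2 of day 14 stood apart from their groups in these genes, and their values are given below.

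The typical gene of the set was low on day 8 and had reached most of its adult level by day 35. The median over the 118 genes of the mean of 10 libraries was 2.15 FPKM on day 8, 5.27 on day 14, 9.57 on day 21, 14.3 on day 35 and 15.1 on day 70. On the log2 scale the median difference between days 8 and 70 was 2.15, with a lowest of 1.41 and a highest of 5.41. On the linear scale the day 70 mean was a median of 5.59 times the day 8 mean, from 2.81 to 159 times, with at least a 4-fold difference in 92 genes and at least 10-fold in 24. Summed over the 118 genes, the level per library had a median of 676 FPKM on day 8 and of 3406 FPKM on day 70. The median change from day 8 over the 14779 rows that entered the tests was -0.01 log2 units on days 14, 21 and 70 and -0.00 on day 35.

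**Figure D1:**
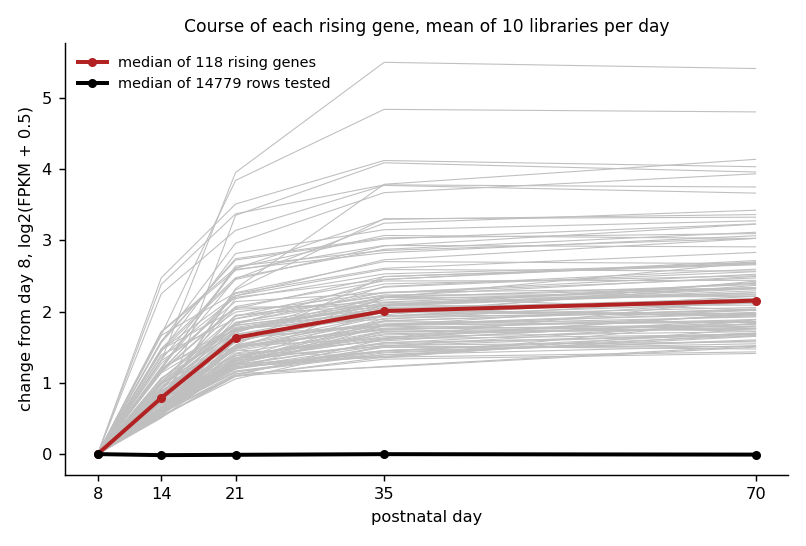
Change of each of the 118 genes from day 8 (grey lines, mean log2(FPKM + 0.5) of 10 libraries per age, both genotypes) against postnatal day, with the median of the set in red and of the 14779 rows tested in black. The red line climbs to 2.15 on day 70, most of it before day 21, and the black line stays near 0.

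The climb was steep to day 21 and then flattened, a shape that the rule in part set. The median step was 0.79 log2 units between days 8 and 14, 0.76 between days 14 and 21, and 0.46 between days 21 and 70. Per day this came to 0.132 log2 units up to day 14 and 0.109 up to day 21, against 0.0247 between days 21 and 35 and 0.00427 between days 35 and 70. The first step made up a median of 39.0% of the whole log2 rise, the second 36.5% and the last 22.5%. The first step was the largest in 64 genes, the second in 46 and the last in 8. The rule asked for larger steps over the shorter intervals up to day 21 than over the longer interval after it. The lower rates, share and count after day 21 are therefore in part a product of the choice.

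These steps were also read in the fit over all rows, with limma and adjusted p-values, as a description of the genes beside the background. Between days 8 and 14, 116 of the 118 were called higher, where 24.0% of all rows tested were. Between days 14 and 21, 116 were called, where 17.3% of all rows were. Between days 21 and 35, 78 were called, with a background of 5.86%, and between days 35 and 70, 12 were called, with a background of 1.16%. Between days 8 and 70 all 118 were called, with a background of 33.0%. Nothing is read from these counts about the set, since the rule used the libraries of days 8, 14, 21 and 70. The genes not called in the first step were ENSRNOG00000034999 (log2 difference 0.77 ± 0.42 SE, limma adjusted p = 0.134) and ENSRNOG00000041621 (0.78 ± 0.69 SE, limma adjusted p = 0.374).

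Single libraries of neighbouring ages were separated in many of the genes. All 10 libraries of day 14 lay above all 10 of day 8 in 74 genes, with a background of 6.63% of the rows tested. The libraries of day 21 lay above those of day 14 in 73 genes (background 3.48%), those of day 35 above those of day 21 in 13 (background 0.501%), and those of day 70 above those of day 35 in 4 (background 0.108%). Between days 8 and 70 the libraries did not overlap in 117 genes, with a background of 15.7%. In 58 genes the libraries of days 8, 14 and 21 stood in order without any overlap, with a background of 1.73%. As with the calls above, the rule used these libraries, and nothing is read from the counts.

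The largest log2 rises did not all start from genes hardly detected on day 8. In the 12 genes with the largest rises the day 8 mean ran from 0.0519 to 18.8 FPKM, with a median of 0.899. ENSRNOG00000015763 had the largest log2 rise. Its 10 libraries on day 8 ran from 0 to 0.408 FPKM with a median of 0.163, and those on day 14 from 0.663 to 2.40 with a median of 1.13. On day 21 they ran from 6.97 to 15.8 with a median of 9.47, on day 35 from 23.7 to 37.3 with a median of 30.4, and on day 70 from 22.6 to 32.9 with a median of 27.3. No library overlapped between days 8, 14, 21 and 35, whereas days 35 and 70 covered much the same range. The day 70 mean was 150 times the day 8 mean, a ratio that rests on day 8 values near 0, with 1 library listed at 0.

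ENSRNOG00000013484 had the second largest rise and the same shape. Its libraries ran from 0.255 to 0.765 FPKM on day 8 (median 0.460), from 2.12 to 3.88 on day 14 (median 2.44) and from 10.7 to 18.3 on day 21 (median 13.0). On day 35 they ran from 24.7 to 32.4 (median 26.5) and on day 70 from 23.3 to 30.0 (median 26.8). Its day 70 mean was 54.7 times its day 8 mean, and again the last pair of ages overlapped while all earlier neighbours did not.

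The genes at the top of the adult range were already plentiful in the first postnatal weeks. ENSRNOG00000021259 had the highest day 70 level of the set, per length of transcript. Its libraries ran from 73.5 to 96.9 FPKM on day 8 (median 78.2), from 117 to 181 on day 14 (median 131) and from 206 to 264 on day 21 (median 216). They ran from 259 to 345 on day 35 (median 280.0) and from 268 to 325 on day 70 (median 280.3). The 3 youngest ages were in order without overlap, and the fold from day 8 to day 70 was 3.63, below the median fold of the set.

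ENSRNOG00000034999, second in day 70 level, varied far more between libraries of one age. Its libraries ran from 9.80 to 50.8 FPKM on day 8 (median 14.9), from 8.90 to 64.4 on day 14 (median 32.6) and from 32.9 to 461 on day 21 (median 88.0). On day 35 they ran from 60.0 to 707 (median 156) and on day 70 from 52.9 to 401 (median 187). Every neighbouring pair of ages overlapped. In 4 of the 5 ages (days 8, 21, 35 and 70) its highest library was the one with the largest summed deposited FPKM of that age, and its deviations within the groups correlated with the log of that sum over the 50 libraries (Pearson r = 0.82, given as a description). ENSRNOG00000041621 had r = 0.75 on the same measure, and the other 116 genes had r of 0.7 or less, as did all but 2.84% of the rows tested. The part of that sum in these values was not tested.

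**Figure D2:**
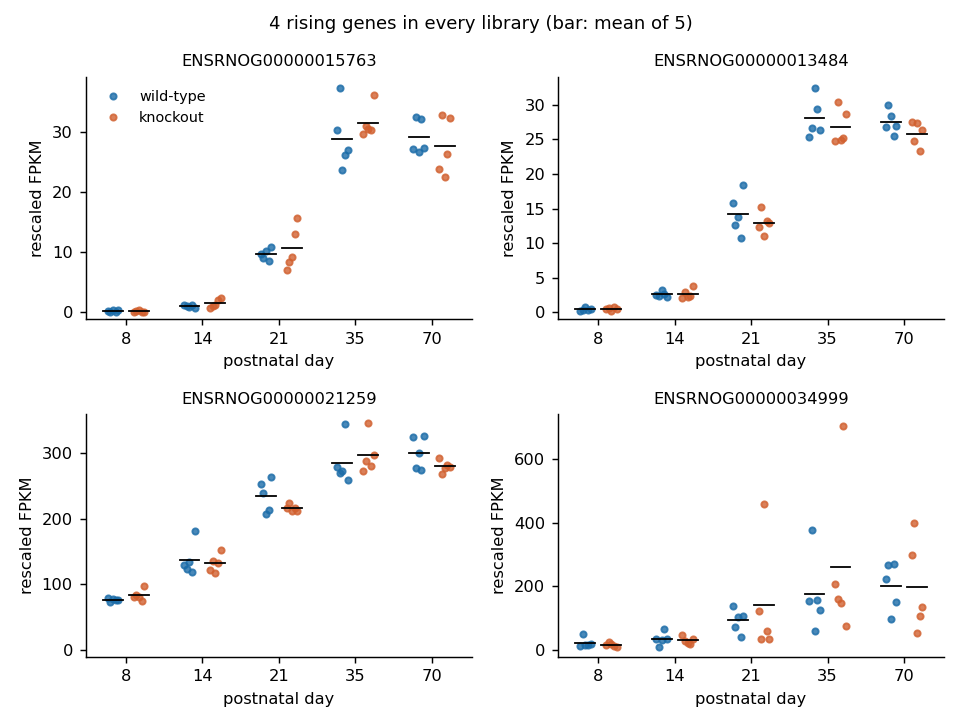
Rescaled FPKM (linear axis from 0) of 4 genes in every library against postnatal day, with wild-type in blue, knockout in orange and the mean of each group of 5 as a bar. The upper genes start near 0 and level off on day 35, the lower left gene starts near 80 FPKM, and the lower right gene has single libraries at 461 and 707 FPKM far above the rest of their groups.

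Genes lower on day 8 had the larger linear folds, an order that did not hold on the log2 scale used here. The 36 genes with a day 8 mean under 1 FPKM had a median fold of 8.59 and reached a median of 5.19 FPKM on day 70. The 66 genes between 1 and 10 FPKM on day 8 had a median fold of 4.86 and a day 70 median of 18.9 FPKM. The 16 genes at 10 FPKM or more on day 8 had a median fold of 4.34 and a day 70 median of 101 FPKM. Since the rule set a minimum mean level and minimum steps, a gene low on day 8 could enter only with a large fold, so this order is in part a product of the choice. The median log2 rise was 2.33, 2.03 and 2.12 in the same 3 classes. The constant added to FPKM before log2 was taken understates the fold changes of low genes. These log2 rises therefore do not rank the classes by fold. Values listed at 0 occurred in 4 genes, 13 of them on day 8, 3 on day 14, 1 on day 21 and 1 on day 35.

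The genes also differed in when they climbed on the log2 scale used here. In ENSRNOG00000015155 14.4% of the log2 rise fell between days 8 and 14, and 70.3% fell between days 14 and 21. The day 8 and day 14 means of this gene, 0.0519 and 0.358 FPKM, lay below the constant added before log2 was taken. That constant understates the first step of this gene and the share of the rise in it. Its libraries ran from 0 to 0.150 FPKM on day 8, with 5 of 10 listed at 0, and from 0.0826 to 1.21 on day 14, then from 3.69 to 7.04 on day 21, from 6.12 to 13.5 on day 35 and from 5.62 to 12.1 on day 70. The jump lay between the highest day 14 library and the lowest day 21 library, 1.21 against 3.69 FPKM. In ENSRNOG00000005457, by contrast, 63.5% of the rise fell before day 14. Its libraries ran from 0.264 to 0.986 FPKM on day 8, from 4.33 to 6.31 on day 14, from 9.67 to 14.4 on day 21, from 10.8 to 20.1 on day 35 and from 12.0 to 17.7 on day 70. In this gene the first 3 ages did not overlap, and the last 3 did.

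The libraries of day 35 did not enter the steps of the rule, although days 21 and 70 did, so the place of day 35 between them is a description. In the median gene 72.4% of the log2 change from day 21 to day 70 was in place on day 35. The day 35 mean lay between the means of days 21 and 70 in 99 genes, above day 70 in 18 and below day 21 in 1. At least 50% of the change had been made by day 35 in 98 genes, 83.1% of the set. For comparison, 958 rows outside the set, with the same minimum level, also gained at least 0.3 log2 units from day 21 to 70. Among these the median place was 60.3%, and 64.9% had made at least 50% of the change by day 35.

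**Figure D3:**
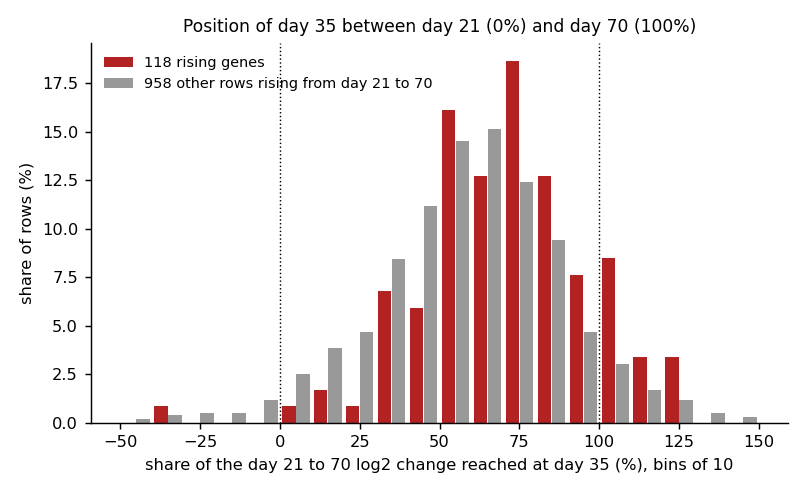
Share of the log2 change from day 21 (0%) to day 70 (100%) that was reached on day 35, in bins of 10 percentage points, as a percentage of the 118 genes (red) and of 958 other rows that gained at least 0.3 log2 units from day 21 to 70 (grey). The red bars centre near their median of 72.4% and the grey bars near 60.3%, and 35 of the grey rows lie outside the axis.

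Single genes departed from that course in both directions. ENSRNOG00000012885 had the highest place of day 35, above its day 70 mean: its libraries ran from 4.80 to 6.80 FPKM on day 21, from 6.52 to 9.02 on day 35 and from 6.27 to 8.30 on day 70. Its day 35 libraries overlapped those of both other ages. ENSRNOG00000015768 came next: its libraries ran from 1.24 to 2.40 FPKM on day 21, from 2.47 to 3.94 on day 35 and from 2.32 to 3.48 on day 70. Here day 35 lay wholly above day 21 and overlapped day 70. ENSRNOG00000019207 was the gene whose day 35 mean fell below that of day 21: its libraries ran from 15.2 to 28.2 FPKM on day 21, from 8.22 to 35.2 on day 35 and from 17.0 to 36.7 on day 70. Its 3 ages overlapped throughout, and its last step of 0.30 log2 units was the closest to the threshold.

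Some rows outside the set were close to it. The nearest members above the first threshold had steps of 0.507 and 0.516, and the nearest rows below it that met the other conditions had 0.4999 and 0.4987. For the second step these were 0.502 and 0.505 against 0.493 and 0.489, and for the last step 0.302 and 0.306 against 0.295 and 0.295. Within 0.05 log2 units below the thresholds there were 13, 13 and 25 such rows. The set is therefore a stretch of a continuous range. A further 209 rows made both early steps and not the last, and in these the median change was 0.09 log2 units from day 21 to 35 and -0.02 from day 35 to 70, against 0.35 and 0.15 in the 118 genes, a difference that the choice itself makes.

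Averaged over the 118 genes, the libraries fell into the order of their ages. The mean log2 level ran from 1.38 to 1.77 in the 10 libraries of day 8, from 2.41 to 2.90 on day 14, from 3.34 to 3.51 on day 21, from 3.69 to 3.96 on day 35 and from 3.84 to 4.08 on day 70. Days 8, 14, 21 and 35 did not overlap, and days 35 and 70 did. Relative depth, recovered from the steps of low values, ranged from 0.397 to 1.42 over the libraries, with medians by age between 0.898 and 1.03, and 17890 to 20219 rows were above 0 in a library. Absolute depth is unknown.

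A pair of knockout libraries stood apart within their groups. Knockout library 30-5 of day 8 had the lowest mean, 1.38, where the other 4 of its group ran from 1.64 to 1.74, and its genes lay a median of 0.27 log2 units below the mean of those 4. Still, 38 of the 118 genes were above that mean in it. In the same library 91 rows that fell over age by the same thresholds lay a median of 0.22 above. Of these falling rows 58.2% were above, against 52.7% of all rows tested, which lay a median of 0.03 above. Knockout library 24-2 of day 14 had the highest mean, 2.90, and 110 of the 118 genes there were above the mean of the other 4, by a median of 0.33. The 91 falling rows lay a median of 0.37 below in it (-0.37), and all rows tested lay at 0.00. This pair was picked after the values were seen. Dixon's criterion, explained at the end, flagged 30-5 but not 24-2, and it flagged knockout libraries 17-2 and 5-3, which were kept. Wild-type library 21-3 of day 14, the lowest of its group at 2.41, was also kept. Without knockout libraries 30-5 and 24-2 the median step over the 118 genes was 0.74 log2 units between days 8 and 14 and 0.80 between days 14 and 21. Limma then called 115 genes higher in the first of these steps and 118 in the second, where 23.0% and 18.6% of all rows were. The libraries did not overlap in 74 and 78 genes. The background rose as well: 1135 and 620 of the 14779 rows tested had no overlap, against 980 and 514 with all libraries. The genotype results that these libraries touch follow with and without them.

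**Figure D4:**
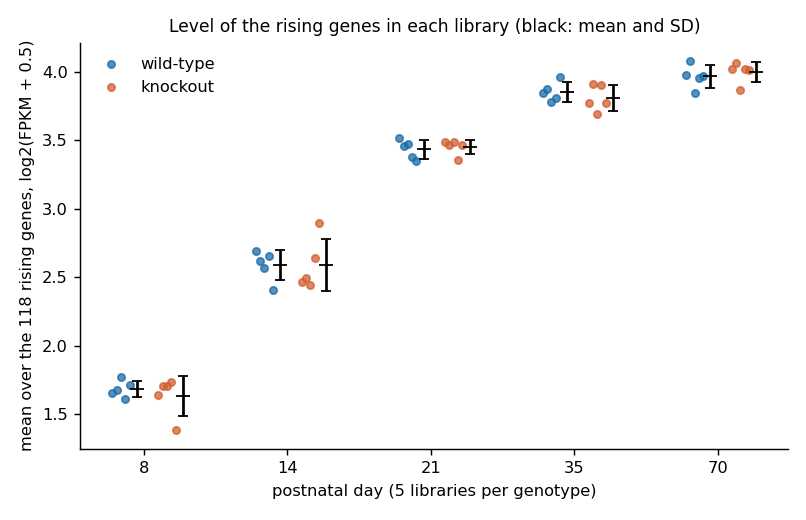
Mean log2(FPKM + 0.5) over the 118 genes in each of the 50 libraries against postnatal day, wild-type in blue and knockout in orange, with the mean and SD of each group of 5 in black. Knockout and wild-type groups overlap at every age, with one low knockout library (1.38) on day 8 and one high knockout library (2.90) on day 14.

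The study was designed to compare the 2 genotypes within each age, and the rule did not select on that comparison, since it averaged equal numbers of both genotypes. The mean level of the set was 1.63 ± 0.15 (SD, n = 5) in the knockout and 1.68 ± 0.06 (SD, n = 5) in the wild-type on day 8, 2.59 ± 0.19 and 2.59 ± 0.11 on day 14, and 3.45 ± 0.05 and 3.43 ± 0.07 on day 21. It was 3.81 ± 0.09 and 3.85 ± 0.07 on day 35 and 3.99 ± 0.07 and 3.96 ± 0.08 on day 70. At each age the 2 genotypes differed by less than 1 SD. Without library 30-5 the knockout mean on day 8 was 1.70 ± 0.04 (SD, n = 4), above the wild-type mean, so the direction on that day turned with 1 library. Without library 24-2, and with the low wild-type library 21-3 kept, the knockout mean on day 14 was 2.51 ± 0.09 (SD, n = 4), below the wild-type mean.

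No gene of the set passed the limma test between genotypes at any age. On day 8, 0 of the 118 genes were called, where 0.244% of all rows tested were, and 19 had an unadjusted p under 0.05 (16.1% of the set, against 9.32% of all rows). On day 14, 0 were called against a background of 0.00677%, and 5 had an unadjusted p under 0.05 (4.24%, against 2.38% of all rows). On days 21, 35 and 70 the set and the background both stood at 0 called (0.0% of rows). Unadjusted p-values under 0.05 were held there by 3, 5 and 2 genes (2.54%, 4.24% and 1.69% of the set, against 2.95%, 2.55% and 2.40% of all rows). Averaged over the ages 0 genes were called against a background of 0.0338%, with 14 at an unadjusted p under 0.05 (11.9%, against 5.87% of all rows). The count on day 8 became 1 without knockout library 30-5, where 0.48% of all rows were called, and 1 without both libraries named above, where 0.501% were. It became 4 without knockout library 28-1, with a background of 1.09%, and 3 with limma's library weights, with a background of 1.5%. Without both libraries unadjusted p-values under 0.05 were held by 14 genes on day 8 (11.9%, against 6.77% of all rows), 7 on day 14 (5.93%, against 3.63%) and 12 on average over the ages (10.2%, against 6.01%).

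The differences themselves were small. The median of knockout minus wild-type over the set was -0.05 log2 units on day 8, -0.00 on day 14, 0.01 on day 21, -0.04 on day 35 and 0.04 on day 70, while the median over all rows tested was within 0.01 of 0 at each age. The knockout was the higher genotype in 46, 58, 65, 46 and 74 of the 118 genes at the successive ages. Without knockout libraries 30-5 and 24-2 the median was 0.01 on day 8 and -0.08 on day 14, with the knockout higher in 63 and 32 genes, and the median averaged over the ages was -0.01 with and without them. The lowest single difference was -0.55 and the highest 0.90, both on day 35, the latter in ENSRNOG00000041621, which had an SE of 0.97.

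**Figure D5:**
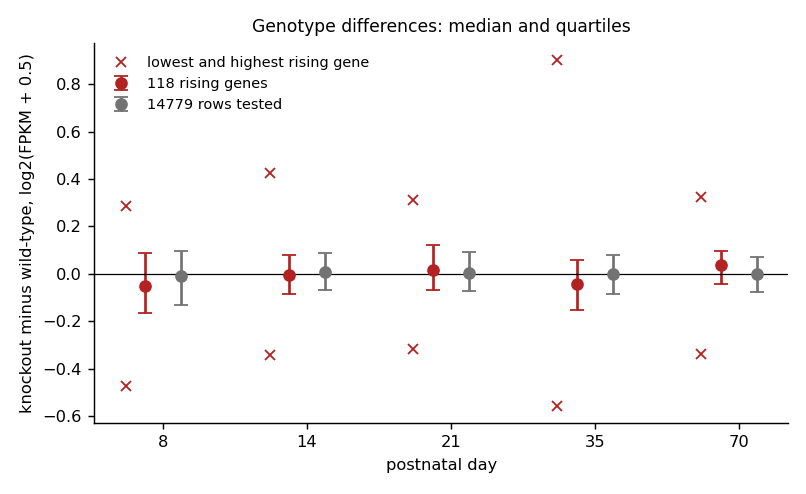
Knockout minus wild-type log2 difference at each age, as median (dot) and quartiles (bars) over the 118 genes (red) and over the 14779 rows tested (grey), with crosses for the lowest and highest gene of the set. The quartile bars of the set span 0 at every age, and the widest crosses, -0.55 and 0.90, are on day 35.

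The precision of these data set a limit on what could be seen. The median SE of a genotype difference at one age was 0.134 log2 units, and its 95% interval reached a median of 0.27 to either side. The interval lay within 1 log2 unit of 0 on both sides in 114 to 116 of the 118 genes at each age, and within 0.5 log2 units in 85 to 98. Averaged over the ages, the interval lay within 0.5 log2 units in 116 genes. Where a gene's interval included 0, its genotype difference was not distinguished from 0 at this number of libraries.

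The gene with the smallest genotype p-value in the set on day 8 was ENSRNOG00000010555. Its knockout libraries had 20.6, 14.7, 19.7, 20.5 and 21.8 FPKM, a mean of 19.5 ± 2.74 (SD, n = 5). Its wild-type libraries had 23.5, 22.1, 29.8, 21.0 and 24.5 FPKM, a mean of 24.2 ± 3.43 (SD, n = 5). The highest knockout library lay above the lowest wild-type library, so the groups overlapped. Knockout minus wild-type came to -0.31 ± 0.08 (SE) on the log2 scale, and limma's adjusted p of 0.105 did not pass. On days 14, 21, 35 and 70 the difference in this gene was -0.10, -0.02, 0.07 and 0.00, each with an SE of 0.08. It was named for its p-value after the values were seen.

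The course over age was also compared between genotypes. For the 4 intervals between neighbouring ages, 0 genes of the set and 0.0% of all rows tested had a change that differed between knockout and wild-type by limma's adjusted p. Unadjusted p-values under 0.05 were found in 11 genes up to day 14, in 1 gene from there to day 21, in 10 up to day 35 and in 3 up to day 70. These were 9.32%, 0.847%, 8.47% and 2.54% of the set, against 6.25%, 1.24%, 3.33% and 1.79% of all rows. In the F test over all interactions 0 genes were called against a background of 0.00677%, with 5 at an unadjusted p under 0.05 (4.24%, against 3.18% of all rows). Without knockout libraries 30-5 and 24-2 the interval and F counts also stood at 0. The background was then 0.0135% of all rows up to day 14, 0% in the later intervals and 0.0406% in the F test. By interval 9, 4, 10 and 4 genes had an unadjusted p under 0.05. These were 7.63%, 3.39%, 8.47% and 3.39% of the set, against 4.47%, 1.81%, 4.51% and 2.14% of all rows. In the F test 11 genes did (9.32%, against 3.78% of all rows). The median difference between genotypes in the change from day 8 to 14 (knockout minus wild-type) was 0.05 log2 units with these libraries and -0.11 without them. The median place of day 35 between days 21 and 70 was 60.6% in the knockout libraries and 76.6% in the wild-type libraries, and the difference between these medians was not tested.

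The choice of the genes was then repeated in 1 genotype and their steps read in the other, as a description. The libraries of the other genotype entered that choice only through the minimum mean level and the joint rescaling. In the wild-type libraries alone 115 rows met the rule, and in the knockout libraries these had median steps of 0.82, 0.78 and 0.46 log2 units. All 3 steps were upward in 113 of the 115, and 74 met every threshold again, where 2789 of the 14779 rows tested had 3 upward steps in the knockout and 129 met every threshold. In the knockout libraries alone 128 rows met the rule, and in the wild-type libraries these had median steps of 0.80, 0.77 and 0.45. All 3 were upward in 126 of the 128, and 74 met every threshold, where 2635 of all rows tested had 3 upward steps in the wild-type and 116 met every threshold. Of the 118 genes themselves, 100 met the rule in the knockout alone and 89 in the wild-type alone. Without knockout libraries 30-5 and 24-2 the 115 rows had knockout steps of 0.70, 0.85 and 0.46, with 113 upward throughout and 66 meeting every threshold. Of all rows tested, 2684 then had 3 upward steps in the knockout and 113 met every threshold. The knockout libraries alone then gave 111 rows, 84 of them in the set. Of the 111, 110 had 3 upward steps in the wild-type and 66 met every threshold. Of all rows tested, 2635 had 3 upward steps in the wild-type and 116 met every threshold.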

How the data were processed

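RNA of 50 libraries (10 groups of 5) was sequenced by the authors after ribosomal RNA removal, as single-end reads, per the labels' protocols. The deposited values are FPKM per Ensembl gene, made by the authors. The labels' protocol names gsnap and the assembly rn4, the submitters' processing notes name BWA 0.6.1, bedtools, Cufflinks and rn4, and the gene annotation is not given in the sources used. No strand protocol is stated, so reads of overlapping genes, and of near-identical copies, may be shared between rows. Columns were matched to samples by title, with 0 left unmatched.

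Libraries were rescaled by the median, over rows above 0 throughout, of the ratio to the row's geometric mean (factors 0.829 to 1.20), and log2(FPKM + 0.5) was taken, on which fold changes of low genes are understated. Relative depth came from 4171 low rows, where 98.0% of ratios, in the median pair of libraries, matched ratios of small integers to within 0.02 on the log2 scale. The 10 group means were fitted with limma 3.58.1 (R 4.3.3, trend and robust variance) to the 14779 rows with a mean of at least 0.5 FPKM, all 118 genes among them, with Benjamini-Hochberg adjustment over all rows and a threshold of 0.05. The limma fit was tested on simulated data with independent normal noise, in which no library was made to stand apart. That test therefore cannot speak to the counts that changed when a library was left out. Tables and plots used Python 3.11.15, pandas 2.3.3 and matplotlib 3.10.9.

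The members and lists were chosen with earlier results of these data known. Genes were named by rule: the largest rises, the highest day 70 levels, any gene called between genotypes, the extremes in the place of day 35 and in the share of the first step. The reference table (GRCr8) matched 0 identifiers, so at most 2 identifiers in each direction are printed for each part of the rule. The lists of cell type markers and pathway genes could not be matched and were not analysed here, and no sequence is shown. Alternatives were another pseudocount, filter, scaling or fit, library weights, a random effect for the first number of the title, and leaving out libraries.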

Additional observations from a re-analysis of the deposited data

Results flagged for a closer look

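In 9 of 50 groups of 5 libraries looked at (the set mean and the 4 genes plotted by library, in 10 groups each), 1 library lay apart from the others by Dixon's criterion for 5 values (gap over range above 0.71). Chance flags about 1 in 20 groups. The mean log2 level of the 118 genes was low in knockout library 30-5 of day 8 (1.38), in knockout library 17-2 of day 21 (3.36) and in knockout library 5-3 of day 70 (3.87). ENSRNOG00000015763 was high in knockout library 9-5 of day 35, at 36.1 FPKM. ENSRNOG00000021259 was high in wild-type library 21-3 of day 14, at 181 FPKM, and in wild-type library 11-4 of day 35, at 344 FPKM. ENSRNOG00000034999 was high in 3 libraries: wild-type 25-3 of day 8 at 50.8 FPKM, knockout 17-1 of day 21 at 461 FPKM and knockout 9-3 of day 35 at 707 FPKM. Each of these 3 had the largest summed deposited FPKM of its age, and the part of that sum was not tested.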

How the results depend on the processing

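The number of genes called between genotypes at day 8, 0 as reported, was 3 with limma's library weights, between 0 and 4 over the fits that left out 1 library each, and 1 without knockout libraries 30-5 of day 8 and 24-2 of day 14, a choice made after seeing the data. ENSRNOG00000010555 was lower in the knockout and called in each of these fits that called any gene: with weights (log2 difference -0.35, limma adjusted p = 0.00507), without knockout library 28-1 (adjusted p = 0.0466) and without 30-5 (adjusted p = 0.0393). With weights ENSRNOG00000014789 was also lower (-0.35) and ENSRNOG00000018366 higher (0.50). Without knockout library 28-1 ENSRNOG00000014789 was called again (-0.52, limma adjusted p = 0.0194). In that fit ENSRNOG00000017689 was called higher (0.38) and a further gene lower (-0.55). All other genotype counts, at the other ages, on average, by interval and in the F test, stayed at 0 under every alternative run. The number of rows meeting the rule was 164 with a pseudocount of 0.1 FPKM (all 118 genes kept), 85 with 1 FPKM, 91 on the values as deposited, 127 after quantile normalization (112 of the 118 kept) and 113 to 125 without 1 library each. Over the latter, the median place of day 35 ran from 68.4% to 73.6%, and 95 to 102 genes had day 35 between days 21 and 70. No paired analysis was possible because the groups share no replicate number. Absolute depth is unknown, and values listed at 0 may be failed estimates.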
